A study of Mus musculus with 12 samples.

Results

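Fatty acid desaturases place double bonds in fatty acid chains and elongases of the Elovl family add carbons to them. In mouse liver Scd1 and Scd2 make monounsaturated fatty acids, Fads1 and Fads2 introduce the double bonds of long polyunsaturated chains, Elovl2 and Elovl5 extend polyunsaturated chains, and Elovl3 and Elovl6 extend mainly saturated and monounsaturated ones. Insulin, acting largely through the sterol regulatory element binding protein SREBP-1c, and the liver X receptors are the best known activators of Scd1 and Elovl6, and the fasting sensor PPARα is a known activator of Fads2 in rodents.

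The 8 genes Scd1, Scd2, Fads1, Fads2, Elovl2, Elovl3, Elovl5 and Elovl6 were looked up as the nearest gene of every region in an ATAC-seq peak table. ATAC-seq counts the cuts that a transposase makes in accessible chromatin, and each region is a window of 200 bp. Of 52530 peaks, 66 were assigned to 6 of the 8 genes, and joining overlapping windows left 61 separate regions. Scd1 had 11 peaks, Fads1 8, Fads2 10, Elovl2 13, Elovl3 3 and Elovl5 21, whereas no peak was assigned to Scd2 or Elovl6. A further 16 peaks lay in and around Elovl6 with the non-coding gene Gm35986 named as nearest, 13 of them annotated to an Elovl6 transcript. They are described apart and are not counted among the 66. In the same way, 3 peaks inside Fads1 introns carried the name Mir6993 and 2 inside a Fads2 intron the name Fads3. The nearest gene need not be the gene that a region acts on.

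Hepatocyte nuclei were immunoprecipitated from livers of female HEP-INTACT mice, a line in which nuclei carry a tag that allows those of a single cell type to be pulled down. The promoter that drives the tag is not given in the sources used here. There were 4 groups of 3 libraries: frozen liver of mice fasted for 16 h from the onset of the active phase (ZT12), frozen liver of mice fed ad libitum and killed at the same time, and fresh liver of each of those 2 feeding states. The labels name 6 mice, each with a frozen and a fresh library. The data columns carry letters A to C that match no mouse number, and the 2 libraries of a feeding state with the same letter are treated here as 1 mouse because they deviated together. Per library, 3692152 to 14506057 reads fell in peaks, and the median peak of these genes held 55.5 to 211 reads, a counting error of 6.88% to 13.4%. All 8 hepatocyte marker genes had peaks, 7 of them within 1 kb of the gene start. Of the marker genes of other liver cells, peaks were found for 5 of 6 endothelial, 2 of 5 macrophage, 1 of 5 stellate, 3 of 5 bile duct and 1 of 5 lymphocyte genes. Near the gene start, only Reln of the stellate list and Sox9 of the bile duct list had one. The 2 macrophage peaks summed to 55.6 to 87.2 normalized reads in frozen fasted, 89.3 to 123 in frozen fed, 81.4 to 108 in fresh fasted and 119 to 161 in fresh fed libraries. The 16 endothelial peaks summed to 1458 to 1577, 1506 to 1631, 1481 to 1501 and 1615 to 1697 normalized reads in the same order of groups. The 4 bile duct peaks summed to 249 to 315, 339 to 369, 281 to 318 and 328 to 354 in that order. The 3 stellate peaks summed to 187 to 285, 273 to 363, 208 to 289 and 236 to 326, and the lymphocyte peak held 137 to 232, 121 to 157, 136 to 232 and 143 to 162. The macrophage and bile duct sums were lower in fasted libraries without overlap in either preparation, the endothelial sums without overlap in fresh liver only, and the stellate and lymphocyte sums overlapped in both. Both Spp1 peaks of the bile duct list passed as lower by limma (median log2 difference -0.96), whereas Epcam (0.28) and Sox9 (0.17) did not. Of the macrophage peaks, Csf1r passed as lower (-1.14) and Adgre1 did not pass (-0.23). The 96 hepatocyte peaks summed to 11919 to 13847 in fresh fasted and 11885 to 13615 in fresh fed libraries. In frozen liver the hepatocyte sums overlapped too. The part of these lists in the results below was not tested.

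RefSeq promoter sequences on GRCm38.p6 were at hand for 4 of the 8 genes, and 3 of them are shown as the 250 bases before the gene start. That of Elovl2, whose start-site peak also held more reads in frozen liver, is not shown. Those of Fads2 and Elovl5 lie under start-site peaks that held more reads in frozen liver, and that of Elovl6 lies under peaks that lost reads on fasting. Both strands were searched for CCAAT, the E-box CACGTG, the sterol element core TCACNCCA, the nuclear receptor hexamer AGGTCA and pairs of that hexamer with 1 (DR1) or 4 (DR4) bases between, and matches are in capitals. The windows lie on the minus strand at chr19:10101504-10101753 for Fads2, and on the plus strand at chr9:77917115-77917364 for Elovl5 and chr3:129532136-129532385 for Elovl6.
Fads2: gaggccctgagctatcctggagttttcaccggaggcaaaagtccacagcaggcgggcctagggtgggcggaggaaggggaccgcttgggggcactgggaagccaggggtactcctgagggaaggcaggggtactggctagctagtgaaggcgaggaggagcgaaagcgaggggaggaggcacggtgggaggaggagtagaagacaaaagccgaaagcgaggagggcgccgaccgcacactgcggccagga
Elovl5: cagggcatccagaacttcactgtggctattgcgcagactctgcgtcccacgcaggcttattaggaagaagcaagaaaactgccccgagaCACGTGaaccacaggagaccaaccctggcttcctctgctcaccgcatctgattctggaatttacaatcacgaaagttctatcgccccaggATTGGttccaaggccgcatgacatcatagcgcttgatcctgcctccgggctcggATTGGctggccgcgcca
Elovl6: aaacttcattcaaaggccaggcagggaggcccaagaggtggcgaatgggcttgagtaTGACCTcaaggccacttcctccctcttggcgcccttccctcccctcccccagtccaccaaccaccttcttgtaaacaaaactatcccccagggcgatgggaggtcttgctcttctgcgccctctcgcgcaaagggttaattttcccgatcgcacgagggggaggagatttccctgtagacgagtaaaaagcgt

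The Elovl5 window holds an E-box beginning 161 bases before the start and 2 CCAAT boxes, read on the opposite strand, at 71 and 17 bases. The Elovl6 window holds 1 nuclear receptor hexamer on the opposite strand at 193 bases, and the Fads2 window holds none of the motifs searched. The Elovl2 window under its start-site peak, not shown, holds none either. Over all 32851 promoters of 300 bases, 37.4% held a CCAAT box, 7.15% the E-box, 4.36% the sterol core, 16.3% the hexamer, 0.0396% a DR1 and 0.0152% a DR4. Of the matches found, the CCAAT box is thus common, and the hexamer and the E-box are less so. Enrichment was not tested. The 4 promoters were richer in G and C than the median promoter (52.7%), at 67.0% for Fads2, 84.7% for the Elovl2 promoter under its peak, 57.7% for Elovl5 and 55.7% for Elovl6.

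What fasting did to accessibility at these genes was compared over 3 fasted and 3 fed mice, each the mean of its frozen and fresh library. Scd1 was lower at 10 of its 11 peaks, the interval between Fads2 and Fads1 was higher beyond 1 kb of either start, and Elovl2 and Elovl5 had peaks moving both ways. By limma (adjusted p under 0.05), fasted mice had 19 of the 66 peaks higher and 17 lower, or 28.8% and 25.8%, against 16.5% higher and 18.1% lower of all peaks. Their median difference was 0.06 on the log2 scale, beside 0.05 for all peaks. Differences are fasted minus fed of log2(normalized reads + 1), with the SE. Changes above 1 on that scale were called at 5 higher and 8 lower peaks (background 1.53% and 5.62%). Of the higher ones, 3 are overlapping windows upstream of Fads2 that share sequence and count as 1 region, and 6 of the lower ones belong to Scd1. All 6 fasted libraries lay above all 6 fed ones at 7 peaks and below them at 10, where 5.16% and 7.79% of all peaks did so. A distance under 1 kb from the nearest gene start held for 11 of the 66 peaks (16.7%, against 35.3% of all peaks), and 31 were intergenic (47.0%, against 26.9%). All 19 gains were among the 55 peaks beyond 1 kb, with 14 losses there (background beyond 1 kb 14.8% higher and 25.4% lower). Within 1 kb, 0 were higher and 3 lower by the same test (5 of the 11 at an unadjusted p under 0.05), where 19.7% of all such peaks were higher and 4.59% lower. Scaling the libraries to the peaks near gene starts moved the median of all peaks from 0.05 to -0.08. That of the 66 peaks moved from 0.06 to -0.06, with 13 higher and 25 lower. The shares of all peaks called under that scaling are not given here, so these counts have no background beside them.

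**Figure D1:**
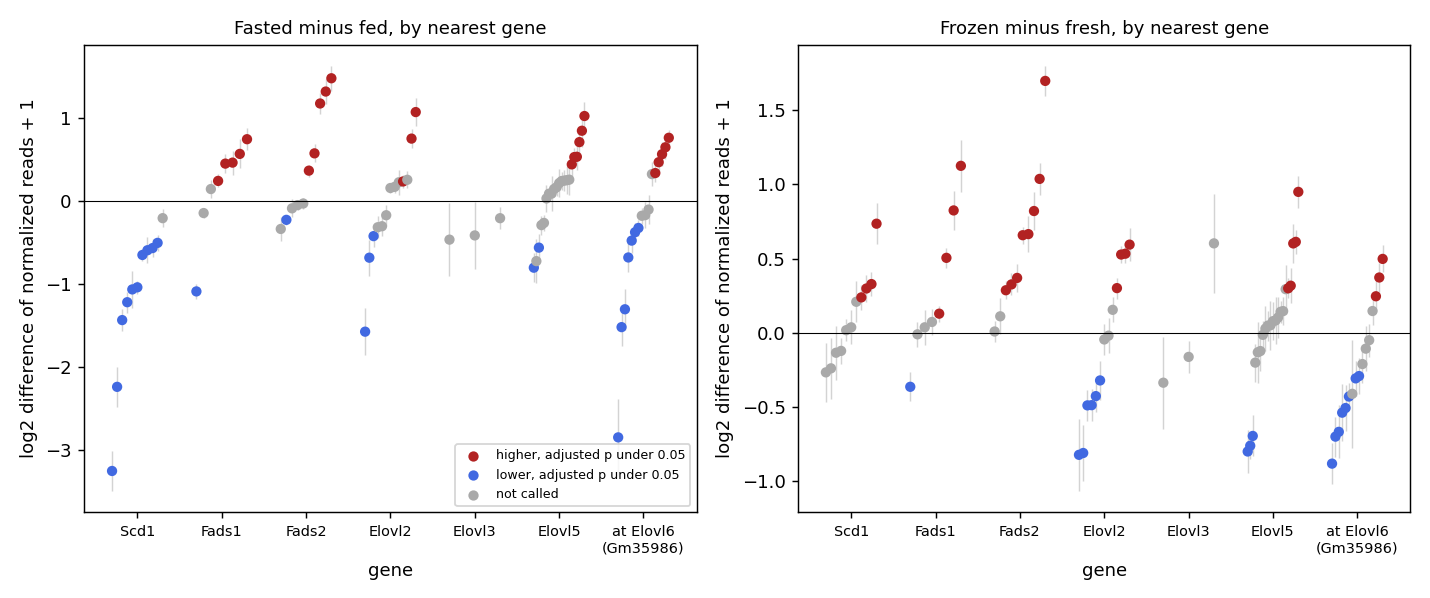
Log2 difference (± SE) of normalized reads + 1 at each peak, grouped by nearest gene, for fasted minus fed mice (left, n = 3 each) and frozen minus fresh liver (right, n = 6 libraries each); red and blue points passed an adjusted p of 0.05 upward and downward, grey did not. On fasting, all called Scd1 peaks are lower, down to -3.25, while Fads2 reaches 1.48; the largest value for freezing is 1.70, at Fads2.

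Scd1, the main stearoyl-CoA desaturase of liver, had 10 of its 11 peaks lower and 0 higher in fasted mice by limma. The peak with the lowest p lay at the end of the transcript, 13.6 kb downstream of the start (mm10 chr19:44393983-44394183). Fasted mice had 10.9, 18.3 and 13.4 normalized reads there in frozen liver (letters A, B and C) and 18.3, 18.2 and 21.5 in fresh liver. Fed mice had 158, 231 and 110 in frozen and 164, 243 and 122 in fresh liver. Every fasted library lay below every fed one by a wide margin, and fed mouse B was highest and fed mouse C lowest in both preparations. The mouse means were 16.8 ± 1.90 and 172 ± 61.0 (SD, n = 3 each), a log2 difference of -3.25 ± 0.24 (limma adjusted p = 9.66e-05).

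Around the Scd1 start the same order held. At the promoter peak 195 bp upstream (chr19:44407804-44408004), fasted mice had 26.4, 18.3 and 22.3 normalized reads in frozen liver and 35.3, 32.7 and 31.6 in fresh liver. Fed mice had 139, 207 and 85.9 in frozen and 130, 171 and 92.6 in fresh liver. The groups did not overlap, and the difference was -2.24 ± 0.24 (limma adjusted p = 0.000299). The peak nearest the start, 163 bp downstream in the 5′ UTR of exon 1 (chr19:44407446-44407646), averaged 105 ± 14.1 in fasted and 250 ± 36.9 in fed mice, a difference of -1.22 ± 0.13. An intergenic peak 8.69 kb upstream (chr19:44416296-44416496) averaged 181 ± 1.83 in fasted and 370 ± 38.7 in fed mice, a difference of -1.04 ± 0.08. All 6 fasted libraries were below all 6 fed ones at both, as at 7 of the 11 Scd1 peaks.

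Beyond the gene end, peaks 18.0 to 27.4 kb downstream of the start were lower by 0.50 to 1.43 on the log2 scale. The strongest of them, 19.8 kb downstream, averaged 42.9 ± 2.06 in fasted and 117 ± 11.5 in fed mice. The farthest Scd1 peak, 34.6 kb downstream, differed by -0.20 ± 0.11 and did not pass (limma adjusted p = 0.163). Summed over its 11 peaks, Scd1 had 1116 ± 54.5 normalized reads in frozen fasted, 2351 ± 376 in frozen fed, 1119 ± 31.5 in fresh fasted and 1968 ± 282 in fresh fed libraries (SD, n = 3 each). Scd1 kept 9 or more lower calls without any 1 mouse.

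**Figure D2:**
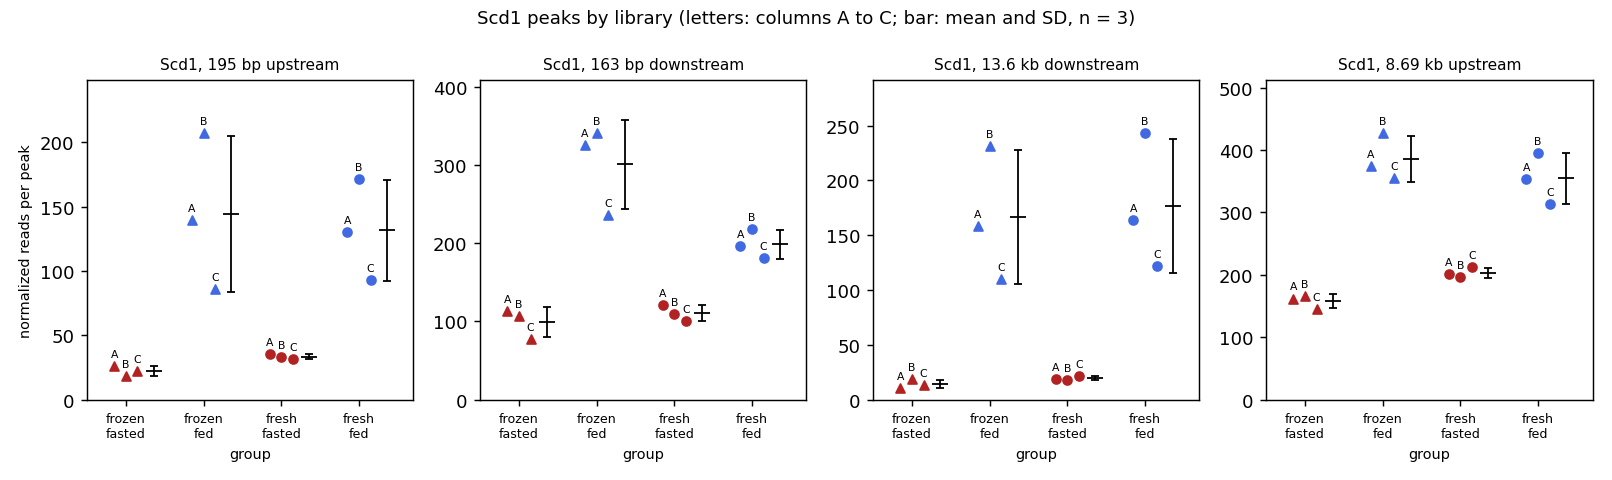
Normalized reads at 4 Scd1 peaks in each library (y axis), by preparation and feeding state (x axis); triangles are frozen and circles fresh liver, red fasted and blue fed, with the mean and SD (n = 3) in black. The fasted libraries of each preparation sit below the fed ones in every panel, and fed mouse B is the highest in each panel.

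Fads1 and Fads2 encode the delta-5 and delta-6 desaturases, which work in turn on dietary polyunsaturated fatty acids, and they are neighbours on chromosome 19 that are transcribed away from each other. Their starts are 81.4 kb apart. By limma, fasted mice had 5 higher and 1 lower of the 10 Fads2 peaks, and 5 higher and 1 lower of the 8 Fads1 peaks. The gains all lay between the starts: every one of the 10 peaks there, beyond 1 kb of either start, was higher, by 0.25 to 1.48 on the log2 scale. That set was drawn after its values were seen and has no test of its own. Without fasted mouse A, or without fed mouse B, it kept 6 calls of 10, and Fads1 kept 1 of its 5 in either case. Fads1 kept 3 of them without fasted mouse B or without fed mouse A, and 2 when libraries were scaled to peaks near gene starts. The 5 Fads2 gains were called without any 1 mouse.

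The largest gain was at a cluster of 3 overlapping windows 20.8 to 21.1 kb upstream of Fads2, which share sequence and count as 1 region. In the farthest of them (chr19:10122467-10122667), fasted mice had 319, 309 and 320 normalized reads in frozen liver and 167, 186 and 182 in fresh liver. Fed mice had 125, 73.3 and 111 in frozen and 82.5, 55.8 and 76.2 in fresh liver. The 3 fasted mice were nearly equal within each preparation, and no fasted library overlapped a fed one. The means were 247 ± 4.01 and 87.4 ± 20.4 (SD, n = 3 each), a difference of 1.48 ± 0.15 (limma adjusted p = 0.000231). The other windows of the cluster were higher by 1.32 and 1.18.

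Next to the cluster, a peak 25.6 kb upstream of Fads2 averaged 198 ± 7.10 in fasted and 153 ± 2.62 in fed mice, a difference of 0.37 ± 0.07. A peak 3.0 kb upstream of Fads2 was higher by 0.58 ± 0.11. On the Fads1 side, the strongest gain lay 14.3 kb upstream (chr19:10168525-10168725), where fasted mice averaged 116 ± 12.8 and fed mice 68.2 ± 7.72, a difference of 0.75 ± 0.13 (limma adjusted p = 0.00259). There too the libraries of the 2 feeding states did not overlap. The other 4 Fads1 gains, from 12.2 to 34.0 kb upstream, were 0.25 to 0.57 on the log2 scale.

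One peak in the first intron of Fads1, 1.46 kb downstream of the start (chr19:10184248-10184448), moved against these. Fasted mice had 116, 103 and 97.9 normalized reads there in frozen liver and 98.4, 125 and 92.7 in fresh liver. Fed mice had 223, 233 and 209 in frozen and 233, 243 and 206 in fresh liver. The groups were far apart in both preparations, and the difference was -1.09 ± 0.09 (limma adjusted p = 0.000146). This was the lowest p of any Fads1 peak. The start-site peaks themselves moved little: the Fads1 peak 22 bp upstream averaged 254 ± 6.19 in fasted and 281 ± 7.41 in fed mice (-0.14 ± 0.06, limma adjusted p = 0.0883), and the Fads2 peak 98 bp upstream 295 ± 10.1 and 308 ± 18.8 (-0.05 ± 0.06, limma adjusted p = 0.594). That Fads1 peak passed as lower under quantile normalization (-0.19) and near-start scaling (-0.27). A second Fads2 start-site peak, 361 bp upstream, was lower by 0.22 ± 0.06 on the log2 scale, a call lost without fasted mouse A, fed mouse A or fed mouse B. The 3 intronic Fads1 peaks named for Mir6993 differed by -0.30 to 0.05 and 0 passed by limma (0 at an unadjusted p under 0.05), and the 2 Fads2 intron peaks named for Fads3 differed by -0.40 and -0.02 (limma adjusted p = 0.0862 and 0.848).

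**Figure D3:**
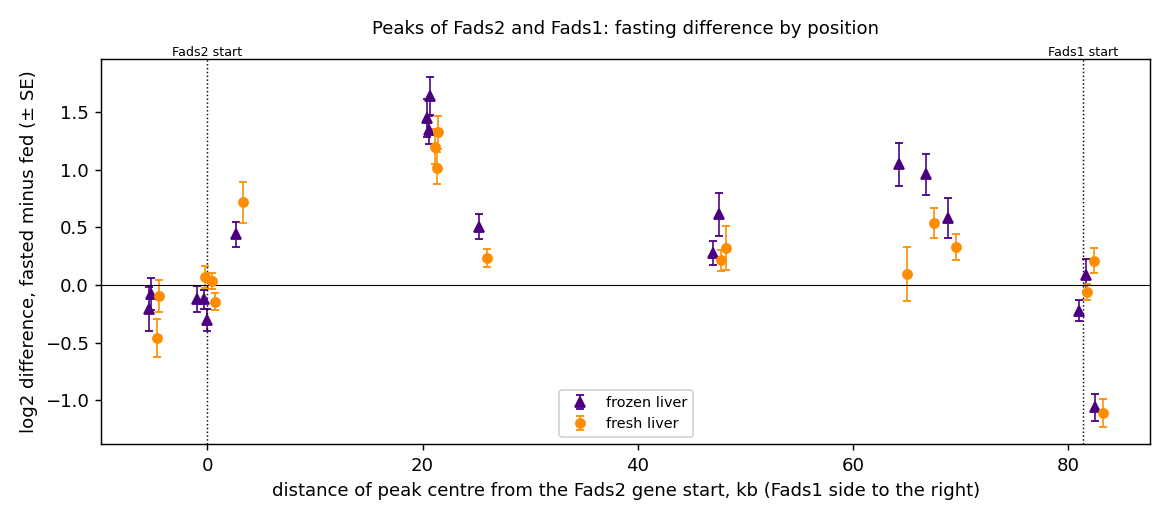
Log2 difference, fasted minus fed (± SE, n = 3 libraries each), of the Fads2 and Fads1 peaks against distance in kb from the Fads2 start, for frozen (triangles) and fresh liver (circles), set 0.7 kb apart for legibility; dotted lines mark the starts. Between the lines, the peaks beyond 1 kb of either start are above 0, up to 1.64 in frozen and 1.33 in fresh liver near 21 kb, and the Fads1 intron peak right of its start is near -1.1 in both.

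Elovl2 and Elovl5, the elongases of polyunsaturated chains, gained and lost peaks along their loci. Elovl2 had 3 of 13 peaks higher and 3 lower, and Elovl5 6 of 21 higher and 2 lower, by limma. At Elovl2 the gains with the largest differences lay upstream. In the peak 7.86 kb upstream (chr13:41228164-41228364), fasted mice had 106, 109 and 93.5 normalized reads in frozen liver and 125, 131 and 121 in fresh liver. Fed mice had 32.2, 52.6 and 61.3 in frozen and 53.2, 59.7 and 69.7 in fresh liver. The groups did not overlap, and the difference was 1.08 ± 0.17 (limma adjusted p = 0.00138). The peak with the lowest p, 6.34 kb upstream (chr13:41226638-41226838), averaged 109 ± 2.74 in fasted and 61.7 ± 4.56 in fed mice, 0.76 ± 0.12 higher. Another, 7.39 kb downstream in an intron, was 0.24 higher, just inside the threshold (limma adjusted p = 0.0498).

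Against them, an intron 1 peak of Elovl2 22.7 kb downstream of the start (chr13:41197365-41197565) lost reads. Fasted mice had 20.0, 20.9 and 6.68 normalized reads in frozen and 33.9, 36.4 and 26.0 in fresh liver. Fed mice had 45.3, 76.5 and 45.6 in frozen and 71.0, 85.0 and 82.1 in fresh liver. No fasted library reached a fed one, and fasted mouse C was lowest in both preparations. The difference was -1.57 ± 0.28 (limma adjusted p = 0.00278). Peaks 39.5 kb downstream and 12.5 kb upstream were lower by 0.68 and 0.42 on the log2 scale. Leaving out fasted mouse A or fed mouse C left 1 of the 3 lower calls, and leaving out fasted mouse B gave 5 higher calls. The Elovl2 start-site peak, 145 bp upstream, averaged 392 ± 23.3 in fasted and 348 ± 19.7 in fed mice (0.16 ± 0.06, limma adjusted p = 0.0745).

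At Elovl5 the lowest p was in intron 1, 34.8 kb downstream of the start (chr9:77952039-77952239). Fasted mice had 49.1, 64.5 and 57.9 normalized reads in frozen and 63.8, 68.0 and 61.0 in fresh liver. Fed mice had 26.2, 27.1 and 27.2 in frozen and 30.2, 31.9 and 32.9 in fresh liver. All fasted libraries were above all fed ones, and the fed libraries varied little (60.7 ± 5.03 in fasted and 29.2 ± 0.933 in fed mice, a difference of 1.03 ± 0.16, limma adjusted p = 0.00166). The intron 1 peak 9.85 kb downstream was 0.85 ± 0.20 higher and that 33.6 kb downstream 0.53 ± 0.11. The other 3 gains lay 68.8 to 71.6 kb upstream, at 0.45 to 0.71, and 2 of these windows are neighbours.

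The Elovl5 losses were a peak 24.7 kb upstream in a sequence annotated as an LTR repeat (-0.80 ± 0.18) and an intron peak 36.3 kb downstream (-0.56 ± 0.16). Reads that match several places can bear on the first. They can also bear on called gains in annotated repeats, at the Elovl5 peak 68.8 kb upstream and the Fads1 peaks 12.2 and 33.5 kb upstream. How such reads were treated is not given in the sources used here. Without fasted mouse A, fed mouse A or fed mouse B, 1 of the 2 was called, and near-start scaling gave 5. With the column letter as a replicate block, 4 Elovl5 peaks were lower. The shares of all peaks called in these alternative fits are not given here, so these counts have no background beside them. The start-site peak of Elovl5, 16 bp upstream, averaged 180 ± 9.23 in fasted and 173 ± 4.61 in fed mice (0.09 ± 0.07, limma adjusted p = 0.339).

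Elovl3, an elongase of saturated and monounsaturated chains, had 3 peaks and none passed on fasting by limma (0 at an unadjusted p under 0.05). One mouse set the spread. At the promoter peak 97 bp upstream (chr19:46131702-46131902), fasted mice A, B and C had 100, 105 and 26.7 normalized reads in frozen and 129, 137 and 38.4 in fresh liver. Fed mice had 92.9, 110 and 78.0 in frozen and 122, 104 and 108 in fresh liver. Fasted mouse C stood below all other libraries in both preparations, whereas fasted mice A and B lay within the fed range in frozen liver and above all 3 fed libraries in fresh liver.

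The peak 21.5 kb upstream of Elovl3 (chr19:46110330-46110530) had the same pattern. Fasted mice had 116, 133 and 31.2 normalized reads in frozen and 82.1, 85.2 and 20.3 in fresh liver, and fed mice 110, 134 and 92.9 in frozen and 74.5, 74.4 and 65.1 in fresh liver. At the transcript end, 4.35 kb downstream, fasted mouse C was again lowest, with 66.8 in frozen and 84.8 in fresh liver. The median over the 3 peaks of its deviation from the group mean was -1.27 in frozen and -1.17 in fresh liver on the log2 scale. At the other 5 genes the corresponding medians for fasted mouse C lay between -0.11 and 0.13. Its libraries held 3692152 reads (frozen), the fewest of any, and 6864441 (fresh).

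**Figure D4:**
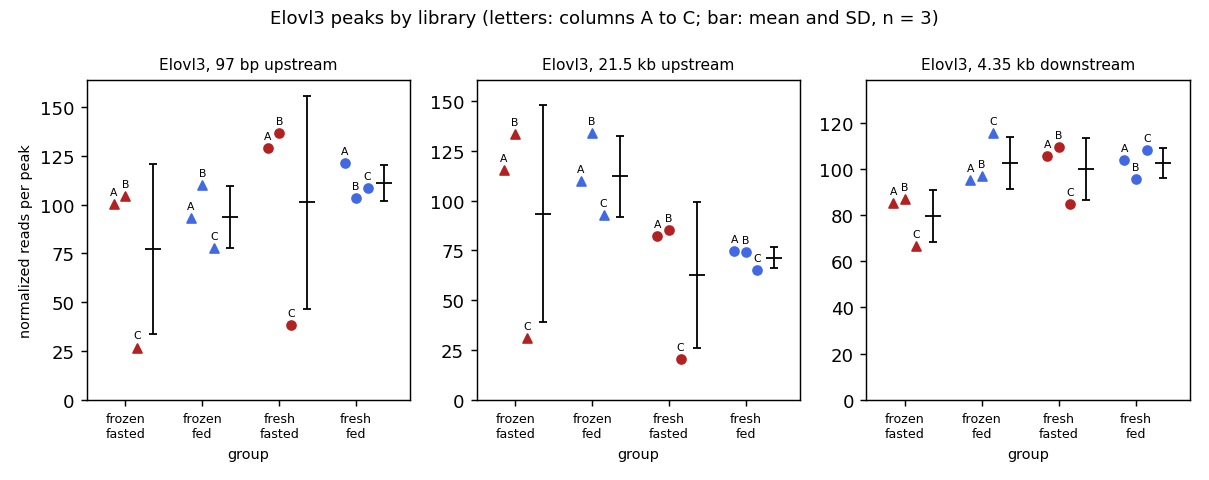
Normalized reads at the 3 Elovl3 peaks in each library (y axis), by preparation and feeding state (x axis); triangles are frozen and circles fresh liver, red fasted and blue fed, letters name the mice and black bars give the mean and SD (n = 3). Fasted mouse C is the lowest point of every panel in both preparations, at 26.7 and 38.4 reads at the promoter.

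Elovl6, the elongase that extends palmitate, is represented by the 16 peaks named for Gm35986, whose start lies beside that of Elovl6. By limma, fasted mice had 5 higher and 7 lower of the 16. Of the 13 annotated to the Elovl6 transcript, 5 were higher and 4 lower. At the promoter peak that spans the Elovl6 start (chr3:129532339-129532539), fasted mice had 70.1, 89.8 and 51.2 normalized reads in frozen and 77.4, 92.5 and 79.1 in fresh liver. Fed mice had 137, 151 and 90.2 in frozen and 139, 122 and 98.6 in fresh liver. The lowest fed library, mouse C in frozen liver, fell just below the highest fasted one. The difference was -0.68 ± 0.18 (limma adjusted p = 0.0158), and it did not pass without fed mouse A (adjusted p = 0.0676) or fed mouse B (0.0719). A neighbouring peak over the same promoter was lower by 0.37 ± 0.12.

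The strongest loss near Elovl6 was intergenic, 26.9 kb from the Gm35986 start on the side away from the Elovl6 gene body (chr3:129505019-129505219). Fasted mice had 10.9, 11.3 and 2.23 normalized reads in frozen and 14.3, 22.3 and 4.52 in fresh liver. Fed mice had 70.3, 82.8 and 50.8 in frozen and 76.3, 95.6 and 54.5 in fresh liver. Fasted and fed libraries did not overlap. The library with letter C was the lowest in each of the 4 groups, though fasted mouse C and fed mouse C are different animals. The means were 10.9 ± 6.88 and 71.7 ± 18.3, a difference of -2.85 ± 0.47 (limma adjusted p = 0.00187). The value of 2.23 in frozen fasted mouse C stands for 1 read. That is at the floor, where the added 1 shapes the log2 value. A peak farther out was lower by 1.52 ± 0.22, and one in intron 3 of Elovl6 by 1.30 ± 0.24, on the log2 scale.

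The 5 gains were also inside Elovl6. The lowest p was at an intron 2 peak (chr3:129579197-129579397), where fasted mice averaged 195 ± 7.11 and fed mice 117 ± 10.7, 0.77 ± 0.09 higher (limma adjusted p = 0.000516) and without overlap of libraries. The other 4 gains were 0.34 to 0.65. Leaving out fasted mouse C left 4 of the 7 losses, and leaving out fed mouse A or fed mouse B left 3.

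**Figure D5:**
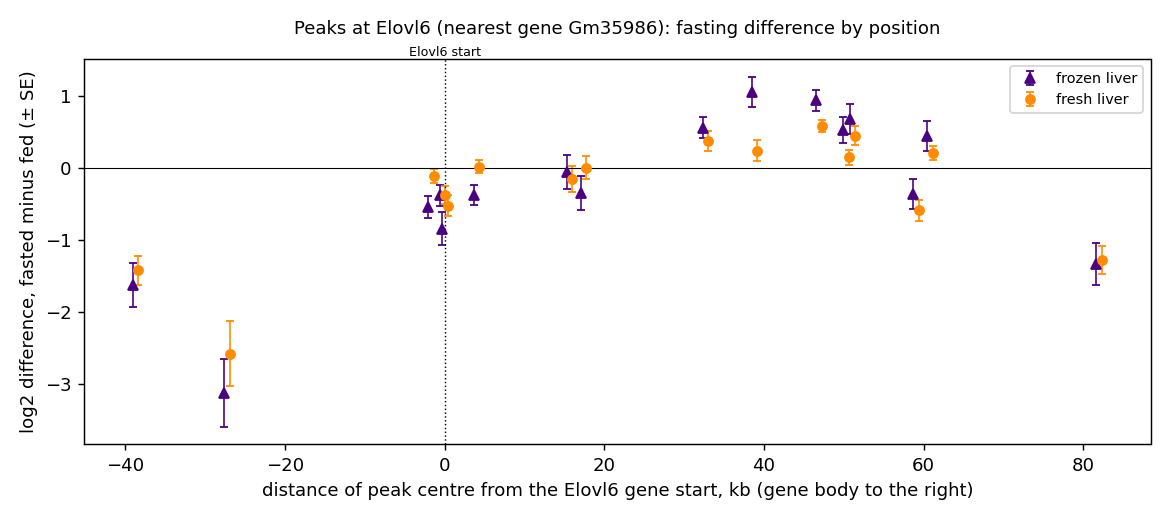
Log2 difference, fasted minus fed (± SE, n = 3 libraries each), of the 16 peaks at Elovl6 against distance in kb from the Elovl6 start (dotted line), for frozen (triangles) and fresh liver (circles), set 0.7 kb apart for legibility. The peaks left of the start and at it are below 0, with the lowest at -3.12 in frozen and -2.57 in fresh liver, and a run of intronic peaks between 30 and 55 kb is above 0.

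Each preparation was also taken by itself. In frozen liver 17 of the 66 peaks were higher and 16 lower by limma (background 12.8% and 15.0%), and in fresh liver 13 higher and 16 lower (11.4% and 16.1%). Of these, 12 were higher in both preparations, 12 lower in both and 0 called in opposite directions, while 9 passed in frozen liver alone and 5 in fresh liver alone. The shares of all peaks with such overlaps were not counted, and the preparations are taken to share mice. These counts are therefore not read as particular to these genes. At an adjusted p under 0.05, the authors' deposited table called 19 higher and 17 lower in frozen and 11 higher and 15 lower in fresh liver. The shares of all peaks it called are not given here, so these counts have no background beside them. In frozen liver 3 of its calls were not made by limma, and in fresh liver limma made 3 that it did not. There were 0 calls in the opposite direction to limma's, but both rest on the same reads.

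A difference of the fasting effect between frozen and fresh liver was tested directly as an interaction. By limma 0 of the 66 peaks passed (0.0% of all peaks; at an unadjusted p under 0.05 there were 6 of the 66 and 2702 of all). When the letter entered as a replicate block, 395 of all peaks passed (0.752%) and 3 of the 66. The Scd1 peak 163 bp downstream fell by 1.59 in frozen and 0.84 in fresh liver on the log2 scale (difference of differences -0.75 ± 0.14, limma adjusted p = 0.00548 with the block). The Scd1 peak 8.69 kb upstream fell by 1.28 in frozen and 0.79 in fresh liver (-0.49 ± 0.11, adjusted p = 0.0215). The Fads1 peak 16.8 kb upstream was 1.05 higher in frozen and 0.10 higher in fresh liver (0.95 ± 0.23, adjusted p = 0.0407). The adjusted p without the block was 0.781 for each of the 3, and with the block and a constant instead of a trended prior 0 of all peaks passed (5913 had an unadjusted p under 0.05).

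The effect of freezing was fitted over the 12 libraries with a term for feeding. The pairing of libraries by letter did not enter this fit. With the letter as a replicate block, a fit whose share of all peaks called is not given here, further peaks passed. Among them were 2 Elovl3 peaks given below and the Elovl5 peaks 71.6 kb (0.29 ± 0.11, limma adjusted p = 0.0214) and 6.70 kb upstream (0.14 ± 0.05, adjusted p = 0.00821). By limma frozen liver had 25 of the 66 peaks higher and 10 lower than fresh liver (37.9% and 15.2%), against 28.7% and 32.8% of all peaks. Their median difference was 0.09 on the log2 scale, where that of all peaks was -0.05. The libraries of the 2 preparations did not overlap at 10 higher and 4 lower peaks, against 15.2% and 11.7% of all peaks. At Fads2 8 of 10 peaks were higher and 0 lower in frozen liver.

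The largest difference was 3.0 kb upstream of Fads2 (chr19:10104404-10104604). Frozen liver had 233, 202 and 245 normalized reads in fasted and 164, 158 and 178 in fed mice. Fresh liver had 82.8, 68.0 and 78.0 in fasted and 55.0, 45.1 and 38.8 in fed mice. Every frozen library lay far above every fresh one, and the difference was 1.70 ± 0.10 (limma adjusted p = 1.01e-09).

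Start-site peaks of Fads2, Elovl5 and Elovl2 were also higher in frozen liver. The Fads2 peak 98 bp upstream, whose sequence is given above, averaged 370 ± 30.3 in frozen and 233 ± 7.25 in fresh libraries (SD, n = 6 each), 0.66 ± 0.06 higher (limma adjusted p = 4.26e-08). The Elovl5 peak 16 bp upstream averaged 214 ± 19.5 in frozen and 139 ± 14.1 in fresh libraries, a difference of 0.61 ± 0.08. The Elovl2 peak 145 bp upstream averaged 438 ± 52.8 in frozen and 302 ± 13.0 in fresh libraries, a difference of 0.53 ± 0.06. None of these 3 overlapped between preparations. Of the 11 peaks within 1 kb of a start, 7 were higher and 0 lower (37.6% and 27.7% of all such peaks).

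Away from the starts, the Elovl5 intron peak with the lowest p for freezing, 26.1 kb downstream, averaged 181 ± 33.4 in frozen and 93.0 ± 16.8 in fresh libraries, 0.95 ± 0.11 higher. The Fads1 peak with the lowest p, 34.0 kb upstream, was 0.51 ± 0.07 higher, and the Scd1 peak with the lowest p, 27.4 kb downstream, 0.74 ± 0.14 higher. Other peaks of the same genes went the other way. The Elovl5 intron peak 19.0 kb downstream averaged 64.5 ± 7.56 in frozen and 110 ± 5.96 in fresh libraries, a difference of -0.76 ± 0.09. At Elovl2 6 of 13 peaks were lower in frozen liver and 4 higher. For Elovl3, where fasted mouse C set the spread, 0 of the 3 peaks passed by limma (0 at an unadjusted p under 0.05). With the replicate block, the promoter peak was lower (-0.34 ± 0.09, limma adjusted p = 0.00248) and the peak 21.5 kb upstream higher (0.60 ± 0.09, adjusted p = 4.37e-06).

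Other genes of the pathway were counted from fixed lists, beside the 16.5% higher and 18.1% lower of all peaks. Of 47 peaks at 8 genes of palmitate synthesis (Acly, Acss2, Acaca, Acacb, Fasn, Mcat, Me1 and Slc25a1), 22 were lower and 1 higher in fasted mice by limma, among them 7 of 12 at Fasn, the fatty acid synthase, and 7 of 9 at Acly, the ATP citrate lyase. Of 109 peaks at 11 regulators, 48 were lower and 12 higher. Srebf1, which encodes SREBP-1c, had 13 of 15 lower, the lipogenic gene Thrsp 6 of 6, and Insig1, which holds SREBP in the endoplasmic reticulum, 11 of 24 lower and 3 higher. Its paralogue Insig2 had 5 of 11 higher and 1 lower. Of 91 peaks at the remaining desaturases, elongases and their partner enzymes and electron donors, 18 were lower and 10 higher, with peaks at 17 of the 18 genes. The single peak of Scd3, a paralogue of Scd1, was lower by 0.78 on the log2 scale, whereas that of Scd4 differed by -0.05 and was not called. The Fads3 peak nearest its start was lower by 0.61. Degs2, a sphingolipid desaturase, had 1 of 4 peaks higher and 0 lower, and Fads6 2 of 5 higher and 0 lower.

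As a description of likeness, log2 reads summed over the peaks of a gene were correlated over the 12 libraries among 3542 genes with at least 5 peaks. The libraries share mice, preparation and feeding state. Scd1 was most like 1700028I16Rik (r = 0.975), Myo10 (0.975) and Mir6392 (0.973). Fads2 was most like Otud7b (r = 0.990), Cebpb (0.988) and 0610037L13Rik (0.984). Between the genes themselves, Scd1 and Fads2 had r = -0.41 and Fads1 and Fads2 r = 0.876.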

How the data were processed

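Per the labels' protocols, about 25000 nuclei on beads went into each ATAC-seq reaction (30 min at 37 °C, 12 PCR cycles). HOMER, DESeq2, SAMtools, BWA 0.7.5a-r405 and mm10 appear, without roles, in the submitters' processing notes. The sources used here do not give read shifting, duplicate handling or peak calling. The authors deposited 1 table of merged peaks whose signal columns hold reads per peak divided by 1 factor per library (all values are whole multiples of 1 step within 1e-06). The authors deposited also log2 fold changes and adjusted p-values within each preparation, quoted here by count only.

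Values were taken as log2(value + 1), unfiltered. limma 3.58.1 (R 4.3.3) was used with a trended prior, two-sided tests, a threshold of 0.05 and Benjamini-Hochberg adjustment over all 52530 peaks. The fits were also run on simulated data. Those libraries were drawn independently, without a shared mouse effect, so they cannot check the fits under the pairing described below. For fasting, the frozen and fresh library of a letter were averaged and tested 3 against 3, and within each preparation; freezing over 12 libraries with feeding state; and their interaction. Same-letter libraries deviated together (r from 0.329 to 0.640, highest other r = 0.0213), so the pairing comes from the data. Whether reads with the same letter come from 1 mouse is not stated. Motifs and promoters came from RefSeq (GRCm38.p6). Count models were not run, since the smallest value equals 1 step in only 4 of 12 columns. Depths and counting errors take 1 step as 1 read and cover counting error only.

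Genes, lists and tests were chosen with earlier results of these data known. The rule named, for each gene, the peak nearest the start, the peaks of lowest p for fasting and freezing, and peaks moving against the rest; other peaks described were chosen after their values were seen. Alternatives were another pseudocount (5), leaving out the lowest 25% of peaks, 2 other scalings, a constant prior, a replicate block, peaks by distance and each mouse left out.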

Additional observations from a re-analysis of the deposited data

Results flagged for a closer look

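In 3 peaks the fasting effect differed between frozen and fresh liver by a direct test with the column letter as a replicate block, and not without it. The difference of differences on the log2 scale was -0.75 at the Scd1 peak 163 bp downstream of its start, -0.49 at the Scd1 peak 8.69 kb upstream and 0.95 at the Fads1 peak 16.8 kb upstream. At both Scd1 peaks the 3 fed mice had more reads in frozen than in fresh liver, and the 3 fasted mice had fewer. At the Fads1 peak fasted mice had 124, 112 and 105 normalized reads in frozen and 35.3, 40.0 and 35.0 in fresh liver, and fed mice 45.3, 52.6 and 67.5 in frozen and 27.5, 35.8 and 40.7 in fresh liver. With a constant prior in the blocked fit 0 of all peaks passed.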

How the results depend on the processing

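Over 13 alternatives the counts of fasting calls for these genes mostly kept within 1.5 times the reported ones. Leaving out each mouse gave 13 to 18 higher and 13 to 19 lower peaks for the averaged comparison, 9 to 11 and 12 to 16 in fresh liver, 13 to 18 and 10 to 17 in frozen liver (the 10 without fed mouse B), and 22 to 27 and 9 to 10 for freezing. Without the lowest 25% of peaks, which tests fewer peaks, 10 were lower in fresh liver and 5 lower in frozen than fresh liver. Scaling to peaks near gene starts gave 11 higher in frozen liver. For fasting and freezing, the shares of all peaks called under these alternatives are not given here. Within 1 kb of gene starts alone, 0 were higher and 3 lower. The replicate block (letters as mice) gave 1 higher and 2 lower interactions. It left the estimated differences as they were and altered only their SE and p, so it could not change a direction. With the block and a constant prior, an alternative chosen after seeing the data, both interaction counts were 0. The Fads1 start-site peak, 0.13 higher in frozen liver, turned to -0.000357 under quantile normalization; the cause was not tested. The edgeR alternative was not run. The median peak of these genes held 55.5 reads in the shallowest library, a counting error of 13.4%, and no detection limit by depth was computed.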
